A study of Mus musculus with 6 samples.

Results

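The miRNAs described here are those best known from red blood cells, 7 mature mouse miRNAs in all: mmu-miR-451a, mmu-miR-144-3p, mmu-miR-144-5p, mmu-miR-486a-5p, mmu-miR-486b-5p, mmu-miR-486a-3p and mmu-miR-486b-3p, written below without the prefix. They were picked by name among the 919 mature miRNA names counted in small RNA libraries of mouse macrophages. Entries with reads name 5 of the 7 and are 4 of the 911 table entries, because miR-486a and miR-486b share joint entries. Only miR-451a and miR-486b-3p had reads under a name of their own. A joint entry does not tell which of its miRNAs gave the reads. Neither arm of miR-144 had a read in any library.

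The libraries came from macrophages grown from bone marrow, 3 of them from ApoE-KO mice (EKO) and 3 from wild-type mice (WT), and the series design calls the replicates biological. All donors were males of 6 to 12 weeks. Their marrow cells were kept in DMEM with 10% fetal bovine serum and received 25 ng/mL of M-CSF, the growth factor that drives macrophage differentiation, every 2 days for 6 days. Macrophages release ApoE, an apolipoprotein that carries cholesterol out of the cell, and the comparison asks what its absence does to their miRNAs. The labels name neither the strain nor the knockout allele, and these files hold no Apoe value that could check the genotype.

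In the red cell lineage, miR-144 and miR-451a are cut from 1 primary transcript that the transcription factor GATA1 drives. The miR-451a hairpin is too short for Dicer and is cut by Argonaute 2, so that its mature form runs from the 5' arm into the loop. The gene of miR-486 lies within Ank1, which encodes a membrane-skeleton protein of red cells, and muscle also makes this miRNA. In red cell precursors miR-451a restrains Ywhaz, which encodes 14-3-3 zeta. Marrow is the site of red cell production, so these miRNAs are commonly read as signs of red cells in a preparation.

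Mature sequences of 3 of the 7 members were present in the RefSeq table used here (build GRCm38.p6): miR-451a and both miR-144 arms. They are shown because the results below turn on a shared transcript of which 1 hairpin left reads and the other left none. Capitals mark the seed, bases 2 to 8 from the 5' end, which selects target transcripts, and no other mature mouse miRNA of that table has any of these 3 seeds.
miR-451a: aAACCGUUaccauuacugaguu
miR-144-3p: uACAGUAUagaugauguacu
miR-144-5p: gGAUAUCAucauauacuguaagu

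The Mir144 hairpin lies at chr11:78073005-78073070 and the Mir451a hairpin at chr11:78073170-78073241, both on the plus strand and 99 bases apart. In the hairpins below, capitals mark the mature miRNAs. The mature miR-451a takes bases 17 to 38 of its 72-base hairpin, whereas the miR-144 hairpin has a mature form on each arm.
Mir451a hairpin: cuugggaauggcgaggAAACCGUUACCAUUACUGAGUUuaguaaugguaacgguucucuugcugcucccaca
Mir144 hairpin: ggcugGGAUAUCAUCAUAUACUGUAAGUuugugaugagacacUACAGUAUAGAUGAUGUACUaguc
The antisense gene Mir451b covers the same interval as Mir451a on the minus strand; miR-451b had 0 reads over the 6 libraries, and no read of miR-451a was shared with any other entry. RefSeq lists miR-486a and miR-486b as overlapping genes of chromosome 8, Mir486 and Mir3107.

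The libraries held 34651516 to 39532548 reads on mature miRNAs in EKO and 38440296 to 41331600 in WT. Levels are given as CPM, the reads of an entry per 1000000 reads on mature miRNAs of that library. Adapter ligation and PCR favour some small RNAs over others, so a CPM compares 1 miRNA between libraries better than it compares 2 miRNAs within a library. The EKO libraries held fewer distinct read sequences, 48275 to 57650, against 62572 to 67508 in WT. All 6 myeloid miRNAs listed for a check of the cell label had reads, with 2 higher and 4 lower values in EKO and none past the test over all miRNAs. The genotypes did not overlap for 1 of them with EKO higher and 3 with EKO lower, against 11.8% and 17.7% of all tested entries. The higher one was miR-223-5p, at 2761 ± 107 CPM in EKO and 2042 ± 106 CPM in WT (SD, n = 3 each). The lower ones were miR-21a-5p, miR-223-3p and miR-142a-5p. The genotypes overlapped for miR-146a-5p and miR-142a-3p, with log2 fold changes of 0.07 ± 0.15 and -0.45 ± 0.19 (SE, edgeR). The myeloid list, mostly miR-21a-5p, summed to 143029 to 171232 CPM in EKO and 215752 to 228577 CPM in WT. Listed lymphoid miRNAs summed to 489 to 592 CPM in EKO and 684 to 801 CPM in WT, and those of platelets and endothelium to 67.2 to 76.0 CPM in EKO and 81.4 to 85.9 CPM in WT. The latter sum was mostly miR-126a-3p, whose log2 fold change of -0.16 ± 0.16 (SE, edgeR) was itself the median of all tested entries. Its CPM did not overlap between the genotypes, at 64.6 to 73.1 in EKO and 76.3 to 79.5 in WT. Listed stromal miRNAs summed to 75.9 to 118 CPM in EKO and 179 to 221 CPM in WT. Nearly all of that was miR-143-3p, at 88.7 ± 22.8 CPM in EKO and 187 ± 22.9 CPM in WT (SD, n = 3 each). Of the 3 tested entries of this list, 2 had genotypes that did not overlap with EKO lower, against 17.7% of all tested entries. They were miR-143-3p and the joint entry of miR-199a-3p and miR-199b-3p, the latter at 1.99 ± 1.86 CPM in EKO and 10.3 ± 3.45 CPM in WT. In the stromal list miR-214-3p went the other way, at 1.19 ± 1.26 CPM in EKO and 0.104 ± 0.180 CPM in WT, with overlap. The part of such differences in the members' values was not tested.

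Among the members, miR-451a was seen in every EKO library and in 1 of the 3 WT libraries, always at a low level. Its level was 5.92, 5.31 and 1.29 CPM in EKO replicates 1 to 3, against 0, 0 and 0.587 CPM in WT replicates 1 to 3. In CPM the genotypes did not overlap. The lowest EKO library, replicate 3 with 48 reads, stood above the highest WT library, replicate 3 with 24 reads. By distinct read sequences the genotypes did overlap, as given below. EKO libraries averaged 4.17 ± 2.51 CPM and WT libraries 0.196 ± 0.339 CPM (SD, n = 3 per genotype), so the mean in EKO was 21.3-fold that in WT, a ratio that rests on the reads of WT replicate 3. In bulk RNA, fewer cells of a type and less of the RNA per cell cannot be told apart.

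The difference in miR-451a did not pass the test over all miRNAs. The fitted log2 fold change was 4.49 ± 2.03 (SE), with an adjusted p of 0.260 among the 575 entries tested (edgeR quasi-likelihood test, unadjusted p = 0.0584). It was the second highest fitted fold change of the 575, but its error was also well above the median error of 0.636. The fitted size depends on how reads of 0 are handled: without WT replicate 3 both remaining WT libraries were at 0 and it came to 10.3. An exact permutation test of the CPM difference gave p = 0.1 (two-sided), the smallest that 3 against 3 libraries allow. DESeq2 gave an unadjusted p of 0.00908 and an adjusted p of 0.0534, and limma-voom 0.0148 and 0.102.

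**Figure D1:**
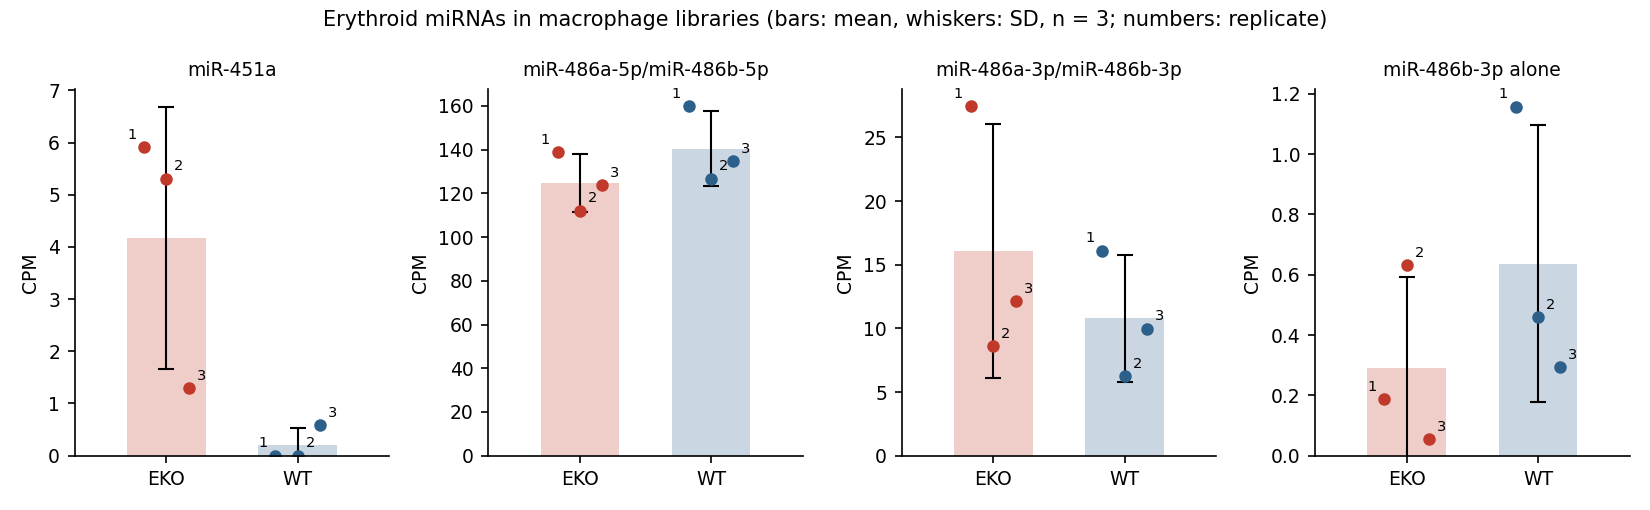
Level in CPM (linear axis from 0) of the 4 entries that hold the members, for 3 EKO and 3 WT libraries. Points are libraries with their replicate number, bars are means and whiskers are SD; miR-451a is the only entry whose genotypes do not overlap (1.29 to 5.92 CPM in EKO, 0 to 0.587 CPM in WT).

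Few distinct sequences stand behind the miR-451a values. The EKO libraries held 205, 210 and 48 reads of it, and the WT libraries held 0, 0 and 24. With no molecular barcodes counted, the number of distinct read sequences gives a view of how varied those reads are: 6, 5 and 1 in EKO, and 0, 0 and 2 in WT. All 48 reads of EKO replicate 3 thus had the same sequence. By distinct sequences the genotypes overlapped, with EKO replicate 3 below WT replicate 3. Other entries with a like number of reads (within 1.5-fold, same library) had a median of 11 distinct sequences in EKO replicate 1, 10 in EKO replicate 2, 4 in EKO replicate 3 and 3 in WT replicate 3. Of these, 13 of 79, 8 of 92, 2 of 64 and 36 of 78 had as few as miR-451a or fewer.

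Counting error alone gives exact 95% binomial intervals for miR-451a of 5.13 to 6.78, 4.62 to 6.08 and 0.954 to 1.72 CPM in EKO replicates 1 to 3, and of 0.376 to 0.873 CPM in WT replicate 3. For the counts of 0 in WT replicates 1 and 2 these two-sided intervals end at 0.0960 and 0.0893 CPM, and the limit of 3 reads, a lower figure, lies at 0.0780 and 0.0726 CPM. PCR copies are not independent molecules, so these intervals and limits cover counting error only. For both miR-144 arms, at 0 reads throughout, the limit of 3 reads is 0.0759 to 0.0866 CPM in EKO and 0.0726 to 0.0780 CPM in WT. In macrophages miR-144-3p is known as a repressor of the cholesterol exporter ABCA1, and it was not detectable at this depth.

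**Figure D2:**
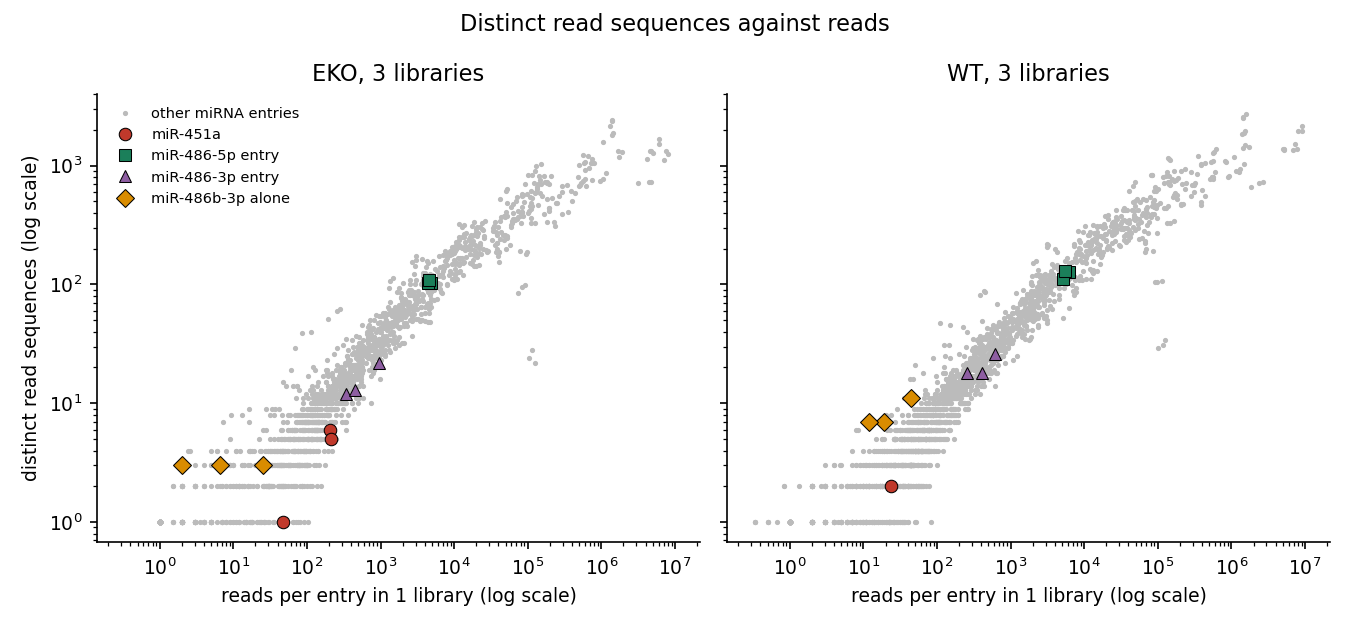
Distinct read sequences against reads for every mature miRNA entry with reads, 1 point per entry and library, in the 3 EKO libraries (left) and the 3 WT libraries (right), both axes logarithmic. The miR-451a points sit at 1 to 6 distinct sequences at the lower edge of the cloud in EKO, while the miR-486-5p points (102 to 108 in EKO, 111 to 130 in WT) lie within it.

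Most member reads were miR-486-5p, and its level overlapped between the genotypes. The joint entry of miR-486a-5p and miR-486b-5p stood at 139, 112 and 124 CPM in EKO replicates 1 to 3, against 160, 127 and 135 CPM in WT replicates 1 to 3. The ranges overlapped, with EKO replicate 1 above WT replicates 2 and 3. Its mean was 125 ± 13.4 CPM in EKO libraries and 140 ± 17.2 CPM in WT libraries (SD, n = 3 each). The log2 fold change from edgeR was -0.14, with an SE of 0.18 and an adjusted p of 0.813. The exact permutation test of the CPM difference gave p = 0.4. By mean level this entry ranked 111 of the 911 entries, and miR-451a ranked 401.

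The miR-486-5p values rest on many reads, 4807, 4430 and 4589 in EKO and 6141, 5235 and 5517 in WT, none of them shared with another entry. They held 102, 103 and 108 distinct sequences in EKO and 128, 111 and 130 in WT. Entries with a like number of reads in the same library had medians of 86 to 97.5 distinct sequences in EKO and 109.5 to 129 in WT. The 4 entries nearest to miR-486-5p in mean level were miR-143-3p, miR-22-5p, miR-872-5p and miR-30a-3p, with log2 fold changes of -1.04 ± 0.24, -0.47 ± 0.18, -0.41 ± 0.18 and 0.20 ± 0.19 (SE). The value for miR-486-5p lay inside the range of these neighbours.

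The opposite arm varied more between libraries. The joint entry of miR-486a-3p and miR-486b-3p stood at 27.4, 8.63 and 12.1 CPM in EKO replicates 1 to 3, against 16.1, 6.27 and 9.97 CPM in WT replicates 1 to 3. EKO replicate 1 was the highest library and WT replicate 2 the lowest, and the genotypes overlapped. Its mean was 16.1 ± 10.00 CPM in EKO libraries and 10.8 ± 4.97 CPM in WT libraries (SD, n = 3 each). The log2 fold change from edgeR was 0.64, with an SE of 0.56 and an adjusted p of 0.680. That direction came from EKO replicate 1: without it the log2 fold change was -0.05.

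A further entry, under miR-486b-3p alone, was close to the detection limit. It held 0.188, 0.632 and 0.0539 CPM in EKO replicates 1 to 3, against 1.16, 0.460 and 0.293 CPM in WT replicates 1 to 3, and the genotypes overlapped. Its reads are partly divided with the joint entry by the authors' counting, as total reads of 8, 50 and 3 in EKO and 84, 36 and 14 in WT became 6.5, 25 and 2 in EKO and 44.5, 19 and 12 in WT. Its log2 fold change from edgeR was -1.12, with an SE of 1.62 and an adjusted p of 0.823, and single libraries moved it: leaving out EKO replicate 2 gave -2.37, leaving out EKO replicate 3 gave -0.63, and leaving out WT replicate 1 gave -0.39. With both 3p entries summed, the arm stood at 16.4 ± 9.86 CPM in EKO and 11.4 ± 5.37 CPM in WT (SD, n = 3 each).

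The ratio of the miR-486 arms differed between libraries. It pools miR-486a and miR-486b, each with its own gene, so it is not the arm ratio of a single hairpin. There were 5.02, 12.1 and 10.2 reads of the 5p arm per read of the 3p arm in EKO replicates 1 to 3, against 9.25, 18.8 and 13.1 in WT replicates 1 to 3. EKO replicate 1 stood lowest and WT replicate 2 highest, with overlap between the genotypes (exact permutation p = 0.3, where 0.1 is the smallest possible). The 5p arm was the more abundant in all 6 libraries.

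Of the 4 entries tested, edgeR called 0 at an adjusted p of 0.05, where 0% of all 575 entries were called. None of the 4 had an unadjusted p under 0.05, against 21.4% of all tested entries. DESeq2 called none of the 4 and 16.3% of the 564 entries to which it gave an adjusted p, and limma-voom called none of the 4 and 5.57% of 575. In CPM the genotypes did not overlap, with EKO higher, for 1 of the 4 entries, against 11.8% of all tested entries. The median log2 fold change of the 4 was 0.25, with 2 higher and 2 lower values in EKO, and that of all tested entries was -0.16, with 240 of 575 higher. Filters on low values let an entry in through the group where it is high, so these counts describe the tested entries only.

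The pattern of miR-451a, with reads in all 3 EKO libraries and at most 1 WT library, was shared by 4 of the 575 tested entries (0.696%), miR-451a included. The others were miR-3095-5p, miR-7671-3p and miR-7677-3p. Among these 3, only miR-7677-3p had genotypes that did not overlap, at 7.59, 3.41 and 7.01 CPM in EKO and 0.728, 0 and 0 CPM in WT. The opposite pattern, reads in all 3 WT libraries and at most 1 EKO library, held for 47 entries (8.17%). Both shares go with fewer entries detected in EKO libraries, 543 to 591 each, than in WT libraries, 668 to 698 each. The 4 entries nearest to miR-451a in mean level, let-7e-3p, miR-7679-3p, miR-199a-5p and miR-3082-3p, had log2 fold changes of -1.23 ± 1.92, 0.09 ± 1.18, -2.65 ± 1.66 and -0.99 ± 1.60 (SE).

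The members did not follow 1 pattern over the libraries. Per 1000 reads of miR-486-5p there were 42.6, 47.4 and 10.5 reads of miR-451a in EKO replicates 1 to 3, against 0, 0 and 4.35 in WT replicates 1 to 3. All 3 EKO libraries stood above all 3 WT libraries, although EKO replicate 3 was much closer to WT replicate 3 than to the other EKO libraries. On the scale log2((miR-451a CPM + 0.5)/(miR-486-5p CPM + 0.5)) EKO libraries averaged -4.94 ± 1.02 and WT libraries -7.76 ± 0.71 (SD, n = 3 per genotype). The difference was 2.82, and it depends on the added 0.5 CPM: it was 4.40 with 0.1 CPM added and 2.16 with 1 CPM. An exact permutation test gave p = 0.1, the smallest value open to that test with 3 against 3.

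Across the libraries miR-451a and miR-486-5p ranked differently. The highest library was EKO replicate 1 for miR-451a and WT replicate 1 for miR-486-5p, and WT replicate 1 held no read of miR-451a. Pearson's r of log2(CPM + 0.5) between the 2 entries was -0.49 over 6 libraries, given as a description, since the libraries fall into genotypes. The 3 tested miRNAs most like miR-451a by this measure were miR-1934-3p (r = 0.97), miR-3103-3p (r = 0.97) and miR-92a-3p (r = 0.96). Those most like miR-486-5p were miR-6967-3p (r = 0.92), miR-193a-5p (r = 0.92) and miR-7235-3p (r = 0.90).

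**Figure D3:**
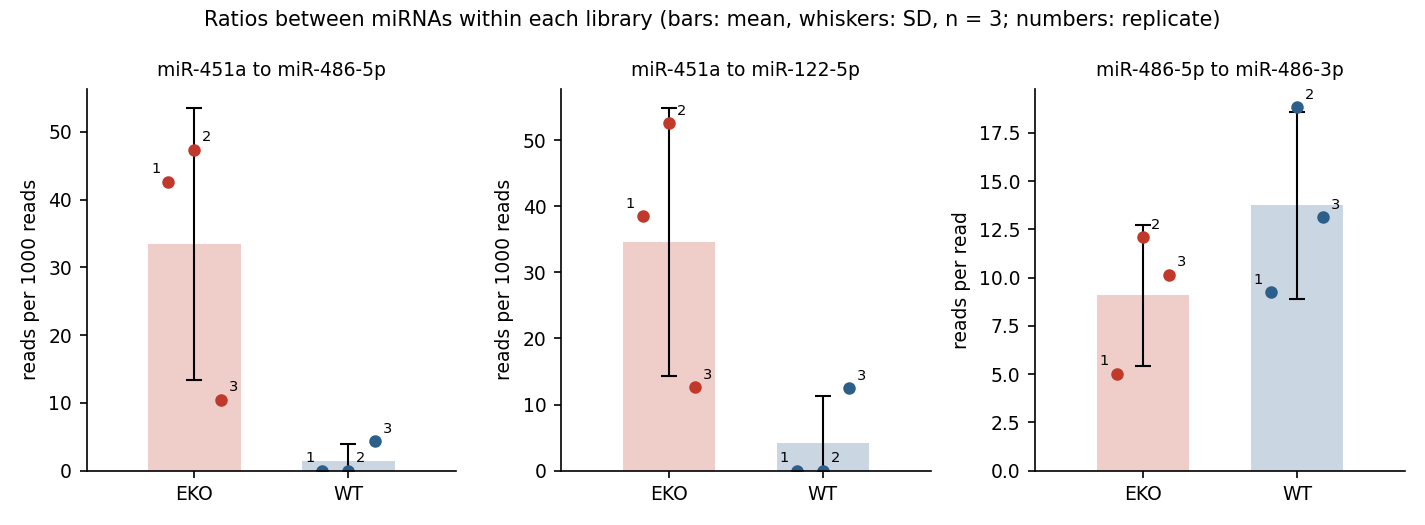
Ratios between miRNAs within each library for 3 EKO and 3 WT libraries: miR-451a per 1000 reads of miR-486-5p, miR-451a per 1000 reads of miR-122-5p, and reads of the miR-486 5p arm per read of its 3p arms. Points are libraries with their replicate number, bars are means and whiskers are SD; the first ratio is 10.5 to 47.4 in EKO and 0 to 4.35 in WT, and the third overlaps between genotypes.

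Other miRNAs that red cells hold, 9 in the list used here, are made by many cell types, and all 9 had reads. None passed the test over all miRNAs, with 3 higher and 6 lower values in EKO, and their log2 fold changes had a median of -0.26. The most abundant were miR-92a-3p, at 16304 ± 1129 CPM in EKO and 14505 ± 661 CPM in WT, and miR-25-3p, at 8282 ± 338 CPM in EKO and 7674 ± 213 CPM in WT, as means ± SD of 3 libraries. Both, with miR-363-3p, carry the seed AUUGCAC. The genotypes did not overlap for 1 miRNA with EKO higher, miR-25-3p, and for 2 with EKO lower, miR-96-5p and miR-210-3p, against 11.8% and 17.7% of all tested entries. The 6 lower values had log2 fold changes from -0.91 ± 0.33 for miR-96-5p to -0.09 ± 0.20 for miR-183-5p (SE), with miR-15a-5p at -0.82 ± 0.71, miR-16-5p at -0.63 ± 0.22, miR-210-3p at -0.36 ± 0.14 and miR-182-5p at -0.26 ± 0.18. The smallest unadjusted p of the list was that of miR-16-5p (0.0233, edgeR adjusted p = 0.154), at 296 ± 94.5 CPM in EKO and 464 ± 99.6 CPM in WT. Next in level after miR-25-3p were miR-182-5p, at 523 ± 84.7 CPM in EKO and 640 ± 78.8 CPM in WT, and miR-183-5p, at 516 ± 99.3 CPM in EKO and 563 ± 77.6 CPM in WT. At the low end, miR-363-3p stood at 1.75 ± 1.78 CPM in EKO and 1.16 ± 0.817 CPM in WT.
miR-92a-3p: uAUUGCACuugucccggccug
miR-25-3p: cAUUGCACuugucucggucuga
miR-363-3p: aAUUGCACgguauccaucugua
Their sequences are shown with the seed in capitals because they share a seed. They were chosen after their values were seen and are the 3 of the 9 with higher values in EKO. Their log2 fold changes were 0.20 ± 0.11, 0.14 ± 0.09 and 0.65 ± 1.41 (SE, adjusted p = 0.365, 0.505 and 0.908, edgeR). Other mature mouse miRNAs outside the list have the same seed, and their values are not given here.

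A ratio of miR-451a to miR-23a-3p is used in human plasma to score lysed red cells, since miR-23a-3p is scarce in them. Per 1000 reads of miR-23a-3p there were 20.4, 13.0 and 2.36 reads of miR-451a in EKO replicates 1 to 3, against 0, 0 and 0.529 in WT replicates 1 to 3. The same ratio for miR-486-5p was 479, 274 and 226 in EKO and 195, 187 and 122 in WT, with no overlap although the CPM of miR-486-5p overlapped. The denominator itself was lower in EKO, by a log2 fold change of -1.04 that missed the threshold (SE 0.23, edgeR adjusted p = 0.0766), so these ratios do not stand for the red-cell miRNAs alone.

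The liver miRNA miR-122-5p, abundant in serum, stood higher in EKO beside miR-451a. Its level was 154, 101 and 102 CPM in EKO replicates 1 to 3, against 58.8, 49.4 and 47.2 CPM in WT replicates 1 to 3, with no overlap. That difference came to 1.24 on the log2 scale (SE 0.25, edgeR adjusted p = 0.0766), short of the threshold. All 4 listed serum miRNAs had higher values in EKO, none past the threshold, around a median of 0.26 on the log2 scale. For 3 of the 4 the genotypes did not overlap, against 11.8% of all tested entries with EKO higher. They summed to 4607 to 4933 CPM in EKO and 3719 to 4176 CPM in WT. Most of that sum was miR-423-5p, at 2971 ± 223 CPM in EKO and 2473 ± 148 CPM in WT (SD, n = 3 each). Most of the miRNAs in the lists used here are also made by macrophages or other cells. The medium held fetal bovine serum in both genotypes, and the part of serum RNA in the miR-451a reads was not tested.

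Levels of miR-451a and miR-122-5p were both higher in EKO, but their order within a genotype differed, and their proportion was not fixed. Pearson's r of log2(CPM + 0.5) between them was 0.87 over 6 libraries, given as a description, since the libraries fall into genotypes. EKO replicates 2 and 3 were alike in miR-122-5p (101 and 102 CPM) but not in miR-451a (5.31 and 1.29 CPM). WT replicate 3, the only WT library with reads of miR-451a, had the lowest miR-122-5p, at 47.2 CPM. There were 38.5, 52.6 and 12.6 reads of miR-451a per 1000 reads of miR-122-5p in EKO replicates 1 to 3, against 0, 0 and 12.4 in WT replicates 1 to 3. EKO replicate 3 and WT replicate 3 were nearly equal, and the other EKO libraries stood above both.

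**Figure D4:**
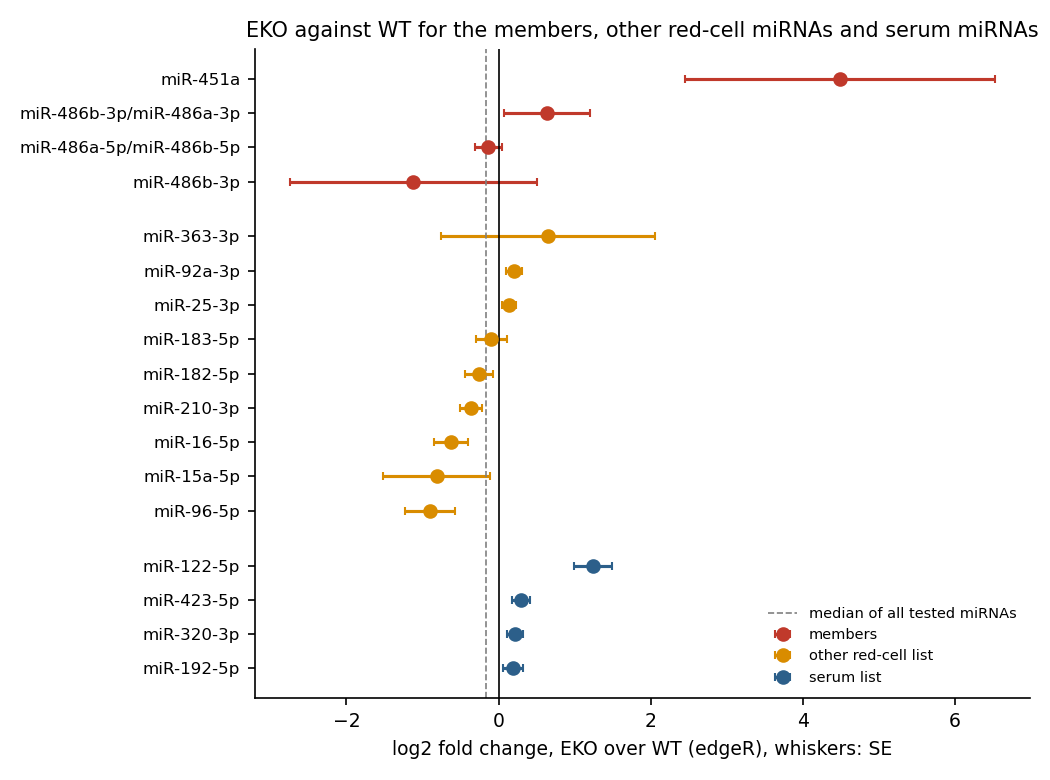
Fitted log2 fold change (EKO over WT, edgeR) with its SE for the 4 tested member entries, 9 other red-cell miRNAs and 4 serum miRNAs. The solid line marks 0 and the dashed line the median of all 575 tested entries (-0.16); miR-451a has the largest value of those shown (4.49) and also the widest whiskers, and all 4 serum miRNAs lie right of 0.

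As a group the members overlapped between genotypes, while the shares of miR-451a and miR-486-5p in their sum did not. Summed over the members, levels were 172, 127 and 137 CPM in EKO and 177, 133 and 146 CPM in WT, and the ranges overlapped. The miR-486-5p entry took 80.53% to 90.17% of that sum in EKO and 90.24% to 94.96% in WT, with next to no gap between the genotypes. The miR-451a entry took 0.943% to 4.19% in EKO and 0 to 0.403% in WT, and miR-144, its partner on the primary transcript, had no reads in any of the 6 libraries. The part of red cells in any of these values was not tested.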

How the data were processed

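Each small RNA library (NEB kit on total RNA from RNeasy columns, per the labels' protocols) has 1 deposited table. Per the file headers it lists, for every reference, distinct read sequences, a total read count, an estimated count that splits multimapping reads, and a barcode count, which was 0 throughout, so that PCR copies remain. The submitters' processing notes name mm9; no aligner or counter is named in the labels or headers. The estimated counts as deposited by the authors were used, and rounded for the count tests. Stem-loop references (73 entries, 0.00127% to 0.00161% of reads) were dropped, and a reference missing from a table counted as 0.

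Genotypes were compared over all 575 entries passing filterByExpr, with edgeR 4.0.16 in R 4.3.3 (TMM, quasi-likelihood test, Benjamini-Hochberg, threshold 0.05). An SE is the log2 fold change over the square root of F. Levels and ratios use plain CPM, with two-sided exact permutation tests. Replicates of 1 genotype differed beyond counting error (chi-square per degree of freedom 211 to 1743). Only the count fits (edgeR, DESeq2 and limma-voom) were tested on simulated data. Alternatives were DESeq2 1.42.0, limma-voom (limma 3.58.1), and other scalings, filters, count columns, blocking and left-out libraries. The members, lists and tests were chosen with earlier results of these data known. Named are all members, up to 4 of the most abundant per list, miR-122-5p, miR-23a-3p, the 2 neighbours in level on each side and the 3 most alike. The entries sharing the detection pattern of miR-451a, and miR-363-3p, miR-96-5p, miR-210-3p, miR-16-5p, miR-15a-5p, miR-223-3p and miR-142a-5p, were chosen after their values were seen. Sequences and coordinates are RefSeq's (GRCm38.p6), not of the authors' build.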

Additional observations from a re-analysis of the deposited data

How the results depend on the processing

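Calls over all miRNAs went from 0 higher and 0 lower in EKO to 43 and 49 with DESeq2 (11 entries lacked an adjusted p), 9 and 23 with limma-voom, 24 and 28 without the filter, 27 and 32 under a minimum mean of 10 CPM, and 26 and 36 in the fit with the replicate block. They ranged from 0 to 16 and from 0 to 29 when libraries were left out 1 at a time, the most without EKO replicate 3. None of these calls was a member. DESeq2 size factors, library totals and total read counts gave 0 and 0. The log2 fold change of miR-451a was 3.92 to 10.3 over 13 alternatives (adjusted p from 0.0534 to 0.426) and that of miR-486-5p -0.26 to -0.03 over 14 (adjusted p from 0.525 to 0.984). For the joint miR-486-3p entry it ran from -0.052 without EKO replicate 1 to 1.05 without WT replicate 1. Its CPM difference ran from -0.405 without EKO replicate 1 to 8.997 without EKO replicate 2, and these were the only results to change direction. The minimum mean of 10 CPM left miR-451a and the entry of miR-486b-3p alone untested. The log2 ratio of miR-451a to miR-486-5p differed by 2.16 (1 CPM added) to 4.40 (0.1 CPM added) over its alternatives.

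Whether libraries sharing a replicate number are paired could not be settled from 3 such pairs. Departures from the genotype mean correlated at 0.18, -0.08 and 0.29 between libraries sharing a number, and at -0.40 to 0.26 between the others. For 1 of 3 EKO libraries the best match was the WT library numbered alike. In the fit with the replicate block the log2 fold change of miR-451a was 7.58 (adjusted p = 0.201, edgeR). Depth limits miR-451a, miR-144 and the entry of miR-486b-3p alone, each with a library under 3 reads.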
